A study of Homo sapiens with 14 samples.

Results

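A set of 42 genes of mitosis and of the G2 to M transition were followed through 14 RNA sequencing libraries of ovarian cancer cell lines. The members were matched by Ensembl gene identifier, and each of the 42 was found among the 62757 genes listed in every count file. All 42 had counts in every one of the 7 groups and passed the low-count filter in every comparison. They lie on 16 chromosomes and were sorted by role into cyclins and CDK1, kinases, spindle checkpoint, partners of the anaphase-promoting complex, kinetochore, chromosomal passenger complex, kinesins, spindle microtubule proteins, cytokinesis and mitotic chromosome proteins.

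The study asked how RNA editing bears on platinum resistance. Parental (WT) OVCAR3 and A2780, 2 established ovarian cancer cell lines, were sequenced beside derivatives labelled DDP, which the series describes as cisplatin-resistant. A further 3 groups carry the titles OVCAR3-DDP-shNC, OVCAR3-DDP-sh1 and OVCAR3-DDP-sh2: resistant OVCAR3 cells with a control hairpin (shNC) or with 1 of 2 hairpins against the RNA-editing enzyme ADAR1 (genotype shADAR1). Each group held 2 libraries, and nothing in the labels says that these came from separate cultures, so the p-values measure the spread between these libraries, which may be technical. The labels do not say whether a derivative is 1 clone, how it was selected, or whether cisplatin was present at harvest.

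Entry into mitosis is driven by CDK1 bound to cyclin B, helped by the kinases PLK1 and AURKA. The spindle checkpoint holds cells before anaphase until kinetochores are attached to microtubules. CDC20 then activates the anaphase-promoting complex, a ubiquitin ligase that sends cyclin B and securin (PTTG1) for destruction. Transcripts of these genes accumulate in late S phase, G2 and M and are low in G1 and in resting cells, so their level in a culture is widely used as a readout of proliferation. Their promoters are bound by the MuvB complex, with B-MYB and FOXM1 in G2 or with DREAM partners in resting cells, through the cell cycle homology region (CHR), and by NF-Y through CCAAT boxes. In bulk RNA, fewer mitotic cells and less RNA per mitotic cell cannot be told apart.

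The promoters were read first because the members were chosen by function and not by sequence. Of the 42, 36 had an entry in the RefSeq promoter table (build GRCh38.p14), which spans 250 bases before to 50 bases after the start; AURKA, BIRC5, BUB3, TPX2, TTK and UBE2C did not. CHR letters (TTTGAA or TTCGAA on either strand) were present in 27 of 36 windows, or 75.0%, against 16.6% of all 27305 windows in the table. CCAAT on either strand was present in 29 windows (80.6%) against 35.7% of all, and both motifs together in 23 (63.9%) against 6.58%. In the S phase and replication list, by comparison, 2 of 20 windows held CHR letters and 14 (70.0%) held CCAAT. A match describes the letters in the window and does not show that a factor was bound. The 5 windows below are shown because they belong to a member that fell in both cisplatin derivatives (CCNB2 and KIF11), to 2 of the 3 members called in opposite directions in the 2 lines (PLK1 and ECT2), and to a member with 2 CHR matches that changed in 1 line (CDC20). Each reads 5′ to 3′ on the gene's strand, with CHR letters and CCAAT boxes (or their complements TTCAAA and ATTGG) in capitals.
CCNB2: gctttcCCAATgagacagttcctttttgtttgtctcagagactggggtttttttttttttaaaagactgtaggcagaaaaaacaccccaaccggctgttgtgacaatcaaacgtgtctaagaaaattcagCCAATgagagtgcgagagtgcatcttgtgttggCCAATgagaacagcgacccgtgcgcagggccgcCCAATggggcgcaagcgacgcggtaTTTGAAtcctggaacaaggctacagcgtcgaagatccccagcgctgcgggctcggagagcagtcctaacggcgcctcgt
KIF11: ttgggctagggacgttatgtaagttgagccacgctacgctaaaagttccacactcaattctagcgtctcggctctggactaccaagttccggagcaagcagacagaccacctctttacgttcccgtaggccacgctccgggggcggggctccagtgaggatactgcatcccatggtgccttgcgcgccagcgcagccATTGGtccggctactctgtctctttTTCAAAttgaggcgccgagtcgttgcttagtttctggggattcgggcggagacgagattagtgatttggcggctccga
PLK1: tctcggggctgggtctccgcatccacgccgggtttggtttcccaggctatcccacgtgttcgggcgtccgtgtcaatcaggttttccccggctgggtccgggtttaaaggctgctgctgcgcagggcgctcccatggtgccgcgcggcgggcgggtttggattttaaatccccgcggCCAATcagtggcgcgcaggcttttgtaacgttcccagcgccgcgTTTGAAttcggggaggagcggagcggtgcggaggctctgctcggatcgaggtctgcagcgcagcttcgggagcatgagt
ECT2: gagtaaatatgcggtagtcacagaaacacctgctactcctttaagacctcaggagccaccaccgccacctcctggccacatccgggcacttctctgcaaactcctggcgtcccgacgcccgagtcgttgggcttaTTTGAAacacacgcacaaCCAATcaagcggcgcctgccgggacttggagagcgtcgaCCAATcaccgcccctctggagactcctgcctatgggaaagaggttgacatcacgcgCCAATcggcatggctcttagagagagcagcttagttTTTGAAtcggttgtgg
CDC20: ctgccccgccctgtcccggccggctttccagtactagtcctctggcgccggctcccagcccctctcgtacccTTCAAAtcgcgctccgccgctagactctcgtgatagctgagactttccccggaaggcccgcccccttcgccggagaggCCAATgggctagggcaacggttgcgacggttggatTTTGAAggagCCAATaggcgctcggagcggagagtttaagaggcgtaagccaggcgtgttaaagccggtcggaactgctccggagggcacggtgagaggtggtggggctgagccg

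All 5 are on the plus strand, at chr15:59104896-59105195 (CCNB2), chr10:92592880-92593179 (KIF11), chr16:23678639-23678938 (PLK1), chr3:172750476-172750775 (ECT2) and chr1:43358731-43359030 (CDC20). In CCNB2 4 CCAAT boxes precede 1 CHR match, whose first base is 29 bases before the start. PLK1 holds 1 CCAAT box and 1 CHR match, the latter also 29 bases before the start. ECT2 holds 3 CCAAT boxes and 2 CHR matches, and CDC20 2 of each. KIF11 holds 1 of each, both on the opposite strand. Both kinds of motif are present in these 5 windows, in different numbers and places. The 5 were picked and do not stand for the members, of which 23 of 36 windows held both. PTTG1, also called in opposite directions, was not shown. The 9 members whose window held neither TTTGAA nor TTCGAA were CCNA2, CCNB1, CDC25C, NEK2, PTTG1, CENPE, AURKB, KIF20A and KIF2C. Other letters and other start sites were not searched, so this does not show that these genes lack a CHR. CENPE, CDC25C and KIF2C held neither motif.

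Libraries held 20428538 to 49115255 counts assigned to genes, at least 31195174 without a hairpin and at most 23746370 with one. Mitochondrial mRNA was 2.31% to 3.51% of counts without a hairpin and 0.726% to 0.947% with one. ADAR, the target of the hairpins, stood at 500.2 and 454 normalised CPM (the scaled count, defined below) with shNC, at 308 and 262 with sh1 and at 120 and 118 with sh2. It was 0.71 (SE 0.11) lower on the log2 scale with sh1 (adjusted p = 0.00123) and 1.99 (SE 0.11) lower with sh2 (adjusted p = 2.07e-09). The 2 libraries labelled OVCAR3-DDP went against their label. The ovarian epithelial marker list (12 genes) summed to 4896 and 4394 normalised CPM in parental OVCAR3 and to 6388 and 6877 with shNC, but to 494 and 533 there, with KRT19 and CD44 at 0. A low sum was not particular to them: the list summed to 183 and 195 in parental A2780 and to 297 and 264 in A2780-DDP. Other groups also had genes of this list at 0, among them WT1 and CDH1 with shNC and KRT7, MUC16 and WT1 in parental A2780. The neural and HEK293-type list (10 genes) summed to 558 and 570 in the libraries labelled OVCAR3-DDP, against 4.62 and 4.15 in parental OVCAR3 and 12.7 and 15.0 with shNC. It summed to 152 and 156 in parental A2780 and to 352 and 396 in A2780-DDP. The part of this difference in identity in the results below was not tested, and the 2 libraries are called the libraries labelled OVCAR3-DDP throughout. Leukocyte markers (8 genes) summed to between 1.27 and 5.37 normalised CPM in every library.

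Levels are given as normalised CPM, the count divided by the library's total after scaling with the trimmed mean of M values (TMM) over all 14 libraries. Differences are log2 fold changes from edgeR's quasi-likelihood test with its SE, and a gene is called when its p-value, adjusted by Benjamini-Hochberg over all genes tested, is below 0.05. The sum over the 42 genes was 5169 and 5298 normalised CPM in parental OVCAR3 and 3590 and 3576 in the libraries labelled OVCAR3-DDP. It was 5589 and 5714 in parental A2780 and 4088 and 3931 in A2780-DDP. The control hairpin libraries held 6947 and 6846, the sh1 libraries 5559 and 6035, and the sh2 libraries 7227 and 7115. Both derivatives without a hairpin were below all other groups, and the groups shNC and sh2 were above all others. The 2 sh1 libraries lay further apart than the pair of any other group.

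**Figure D1:**
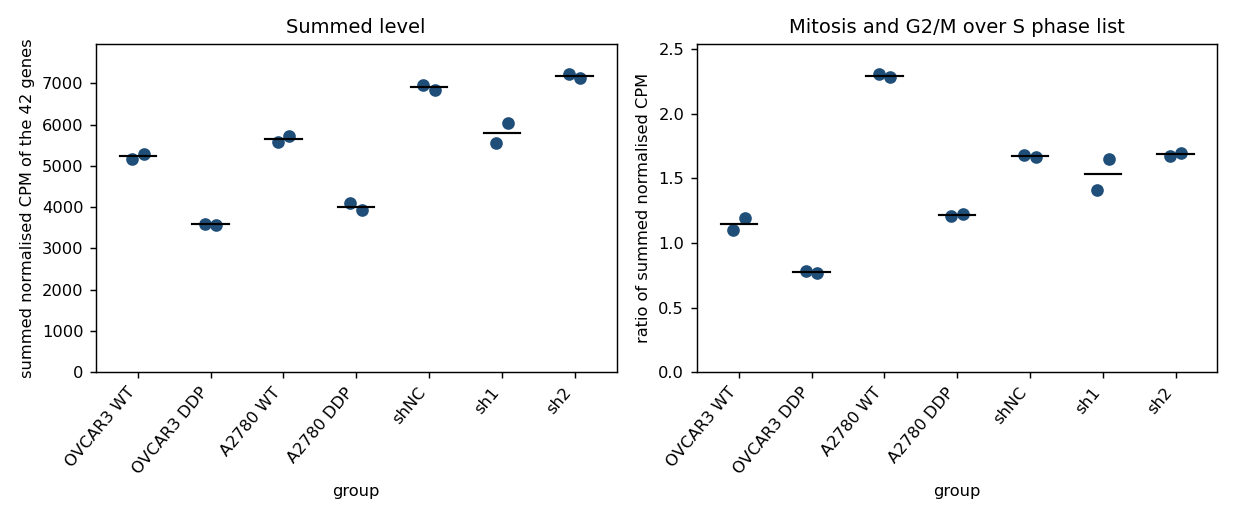
Left: summed normalised CPM of the 42 mitosis and G2/M genes by group. Right: the same sum divided by the sum over 25 S phase and replication genes. Points are libraries and lines the mean of the 2 libraries of a group. The points on the left run from 3576 for a library labelled OVCAR3-DDP to 7227 for an sh2 library. The ratio is highest in parental A2780 (2.31 and 2.28).

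Set against 25 genes of S phase and replication, measured in the same libraries, the order of groups changed. The ratio of the 2 sums was 2.31 and 2.28 in parental A2780 and 1.21 and 1.22 in A2780-DDP. It was 1.0997 and 1.19 in parental OVCAR3 and 0.785 and 0.765 in the libraries labelled OVCAR3-DDP. The 6 hairpin libraries lay between 1.41 and 1.70, and the 2 sh1 libraries (1.41 and 1.65) spanned nearly all of that range. In both cell lines the groups did not overlap, and in A2780 the S phase sum moved the other way, from 2423 and 2508 normalised CPM to 3387 and 3222.

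**Figure D2:**
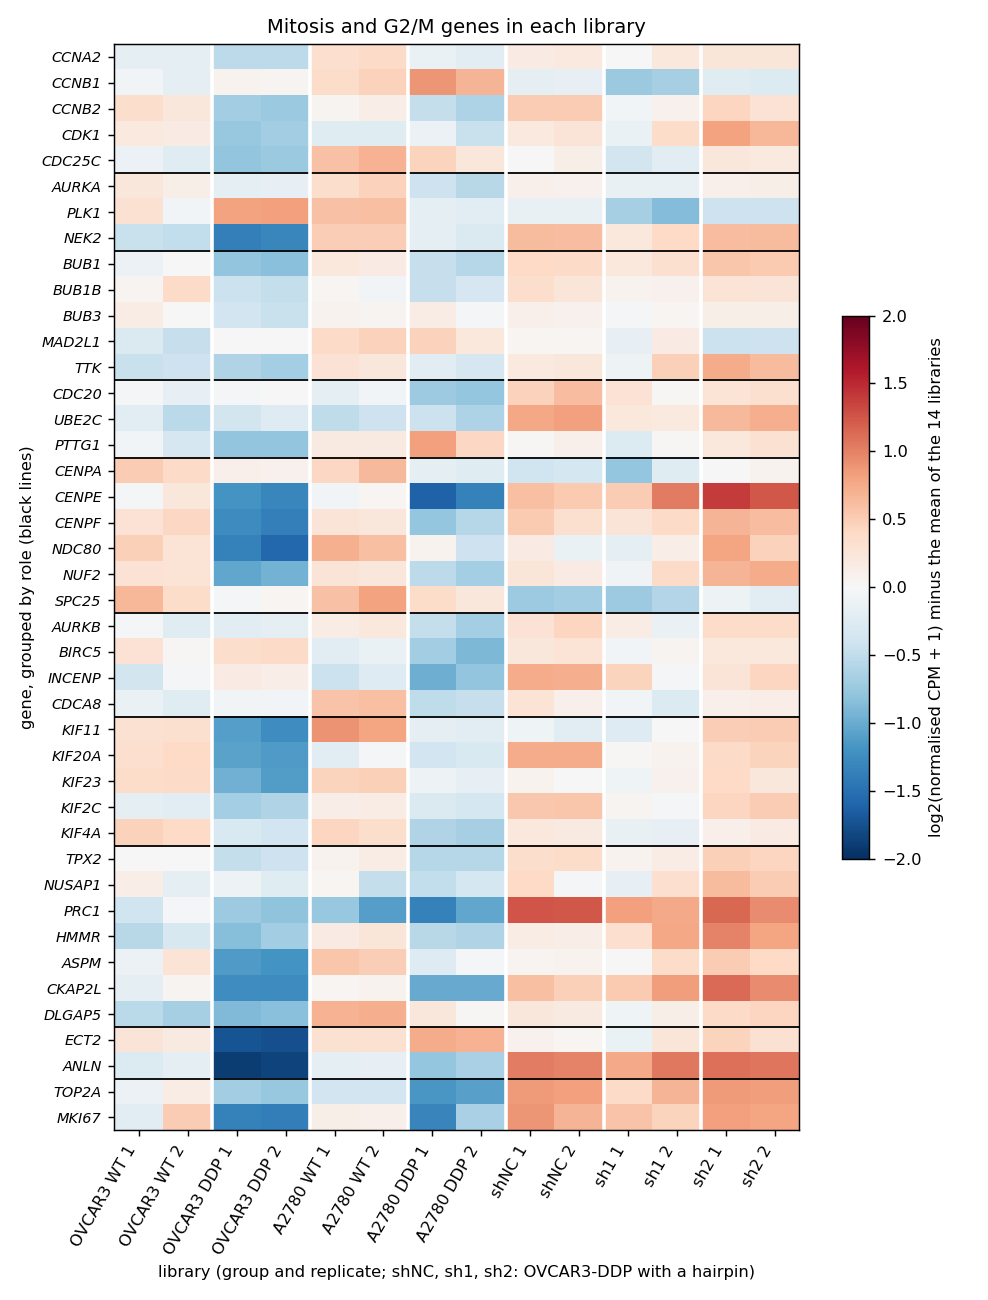
The 42 genes (rows, grouped by role) in the 14 libraries (columns, grouped by white lines), coloured by log2(normalised CPM + 1) minus the gene's mean over the 14 libraries. Blue columns mark the libraries labelled OVCAR3-DDP and, less deeply, A2780-DDP. Several genes break the pattern in at least 1 of these groups, among them CCNB1, PLK1, ECT2, BIRC5, PTTG1 and MAD2L1.

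The lowest of the 7 group means was in the libraries labelled OVCAR3-DDP for 24 of the 42 genes, in A2780-DDP for 13, with sh1 for 3 and with shNC and sh2 for 1 each. The highest was with sh2 for 15, in parental A2780 for 12, with shNC for 9, in A2780-DDP for 3, in the libraries labelled OVCAR3-DDP for 2 and in parental OVCAR3 for 1. The same shares over all genes were not computed, so these counts are not shown to be particular to the members. The range between groups was widest for PRC1 (9.70-fold between shNC and A2780-DDP), ANLN (7.91-fold) and CENPE (7.49-fold) and narrowest for BUB3 (1.46-fold). Corrected for exon length, the highest members in parental OVCAR3 were CDC20 with 108 normalised CPM per kilobase, TPX2 with 87.3 and TOP2A with 80.2. In parental A2780 they were CDC20 with 105, TPX2 with 94.4 and CCNB1 with 85.2. At the other end stood NUSAP1, a spindle protein, with 0.24 per kilobase in parental OVCAR3, and PRC1, which bundles midzone microtubules, with 0.55. These 2 are uncertain: in GENCODE release 29, 62.2% of NUSAP1's exon bases and 57.6% of PRC1's are shared with another gene on the same strand, while no other member shares more than 10.2%, and how the authors' counting treated such reads is not given in the sources used here. Of the 42 members, 16 overlap an exon of another gene on either strand.

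Across the 14 libraries most members varied together. This is a description, since the libraries share groups and scaling and no other gene set was read this way. The Pearson correlation between a member and the mean of the other 41 (log2 scale, n = 14) had a median of 0.79 and was above 0.7 for 24 members. BUB1, a checkpoint kinase, was closest to the rest (0.98), followed by NUF2 (0.96), CENPF (0.96) and TPX2 (0.94). The correlation was below 0 for 5 members: PLK1 (−0.51), CCNB1 (−0.45), MAD2L1 (−0.28), SPC25 (−0.27) and CENPA (−0.02). PLK1 was highest in the libraries labelled OVCAR3-DDP (227 and 229 normalised CPM), where most other members were lowest. CCNB1 was highest in A2780-DDP (302 and 261), and SPC25 was lowest in the 2 shNC and the 2 sh1 libraries, between 7.59 and 8.45.

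The first comparison set the libraries labelled OVCAR3-DDP against the parental line. Of the 42 genes 32 were lower and 2 higher, at a background of 35.2% of 23031 genes lower and 33.4% higher (68.5% in either direction). The 13 members that fell by at least 2-fold compare with 21.5% of all genes. The median over the members was −0.69, against −0.03 over all genes tested. The values of both libraries lay below both parental values for 32 members and above them for 7, where 40.6% and 42.8% of all genes did so. With library totals and no scaling factor, 28 members were lower and 6 higher and the median of all genes moved from −0.03 to 0.12.

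By the median of the role, the largest decreases were in cytokinesis (−1.90, 2 genes), kinesins (−1.50, 5 genes) and kinetochore and centromere (−1.43, 6 genes). ECT2, the exchange factor that activates RhoA at the cleavage furrow (ENSG00000114346.14, chr3:172750682-172821474), stood at 187 and 179 normalised CPM in the parental line and at 46.9 and 46.0 in the libraries labelled OVCAR3-DDP. The difference was −2.05 (SE 0.09, adjusted p = 2.19e-10). ANLN, the furrow scaffold anillin, went from 170 and 179 to 53.9 and 56.3, a difference of −1.74 (SE 0.09, adjusted p = 2.01e-09). The groups of both genes were far apart and their replicates close together. All 6 kinetochore and centromere members were lower. NDC80, the subunit of the kinetochore that binds microtubules, fell from 67.8 and 59.1 to 18.4 and 15.6, or by 1.97 (SE 0.15, adjusted p = 7.84e-08). CENPF went from 217 and 239 to 74.2 and 68.1, a difference of −1.76 (SE 0.10, adjusted p = 5.7e-09). The motor CENPE (−1.48), NUF2 (−1.38), SPC25 (−0.63) and the centromeric histone CENPA (−0.44) complete the group.

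All 5 kinesins were lower as well. KIF11, which pushes spindle poles apart, differed by −1.59 (SE 0.09), KIF20A by −1.56 (SE 0.10) and KIF23 by −1.50 (SE 0.09). The 2 smaller differences were KIF4A (−0.86) and the microtubule depolymerase KIF2C (−0.51). Of the 7 spindle microtubule proteins 6 were lower, from ASPM (−1.35) and CKAP2L (−1.31) to DLGAP5 (−0.34), and NUSAP1 was not called (−0.43, SE 0.60). Of the 6 calls 3 were not kept under every alternative: DLGAP5 was lost under 5 of 17 (adjusted p up to 0.149), PRC1 under 5 of 16 (up to 0.159) and HMMR under 3 of 17 (up to 0.0874). Each was lost without the first library labelled OVCAR3-DDP, among others. The proliferation antigen MKI67 was 1.65 lower on the log2 scale (SE 0.22), with parental values of 222 and 365 that differ more than those of most members, and the DNA topoisomerase TOP2A differed by −0.84 (SE 0.10).

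The regulators were divided. Among cyclins and CDK1, CCNB2 (−1.09), CDK1 (−0.99), CDC25C (−0.69) and CCNA2 (−0.41) were lower, but CCNB1 was not called (0.11, SE 0.10, adjusted p = 0.334). PLK1 was higher, at 227 and 229 against 160 and 125 normalised CPM, a difference of 0.60 (SE 0.11, adjusted p = 0.000226), while the kinases NEK2 (−0.96) and AURKA (−0.42) were lower. In the spindle checkpoint MAD2L1 was higher, at 96.3 and 96.2 against 78.9 and 70.2 (0.29, SE 0.10, adjusted p = 0.0204), and the other 4 were lower, BUB1 most (−0.84). None of the 4 subunits of the chromosomal passenger complex was called: AURKB differed by −0.13 (SE 0.10), BIRC5 by 0.14 (SE 0.11), INCENP by 0.26 (SE 0.12) and CDCA8 by 0.06 (SE 0.09). With no scaling factor BIRC5 (0.32), INCENP (0.43), CDCA8 (0.24) and CCNB1 (0.29) were called higher. CDC20 (0.00, SE 0.09) and UBE2C (−0.00, SE 0.11), which work with the anaphase-promoting complex, were not called, and securin PTTG1 was lower (−0.69). PTTG1 has a near-identical copy, PTTG2, which took 0 to 5 counts per library against 1493 to 5130 for PTTG1. The MAD2L1 call was lost under 3 of 17 alternatives, with an adjusted p of up to 0.115, and the TTK call (−0.29) under 9 of 17, with an adjusted p of up to 0.301. The 3 that ended MAD2L1 left out parental replicate 2 or either library labelled OVCAR3-DDP, and those that ended TTK included 2 other scalings, 2 other filters and DESeq2's Wald test. Every value of this comparison rests on the libraries whose identity markers go against their label.

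A2780 gave the second comparison, with no library shared with the first. Here 32 of the 42 genes were lower and 3 higher in A2780-DDP, at a background of 17.3% of genes lower and 18% higher (35.3% in either direction). The median of −0.66 stands beside 0 over all genes. Of the members, 6 fell by at least 2-fold, against 7.44% of all genes. Both A2780-DDP libraries were below both parental libraries for 33 members (31.1% of all genes) and above for 3 (34.2%). Without the 2 libraries labelled OVCAR3-DDP in the fit the counts were again 32 and 3. Mitochondrial mRNA moved with this comparison, from 3.397% and 3.51% of counts in the parental line to 2.31% and 2.55% in A2780-DDP, as did the neural and HEK293-type markers given above, and the part of either was not tested.

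**Figure D3:**
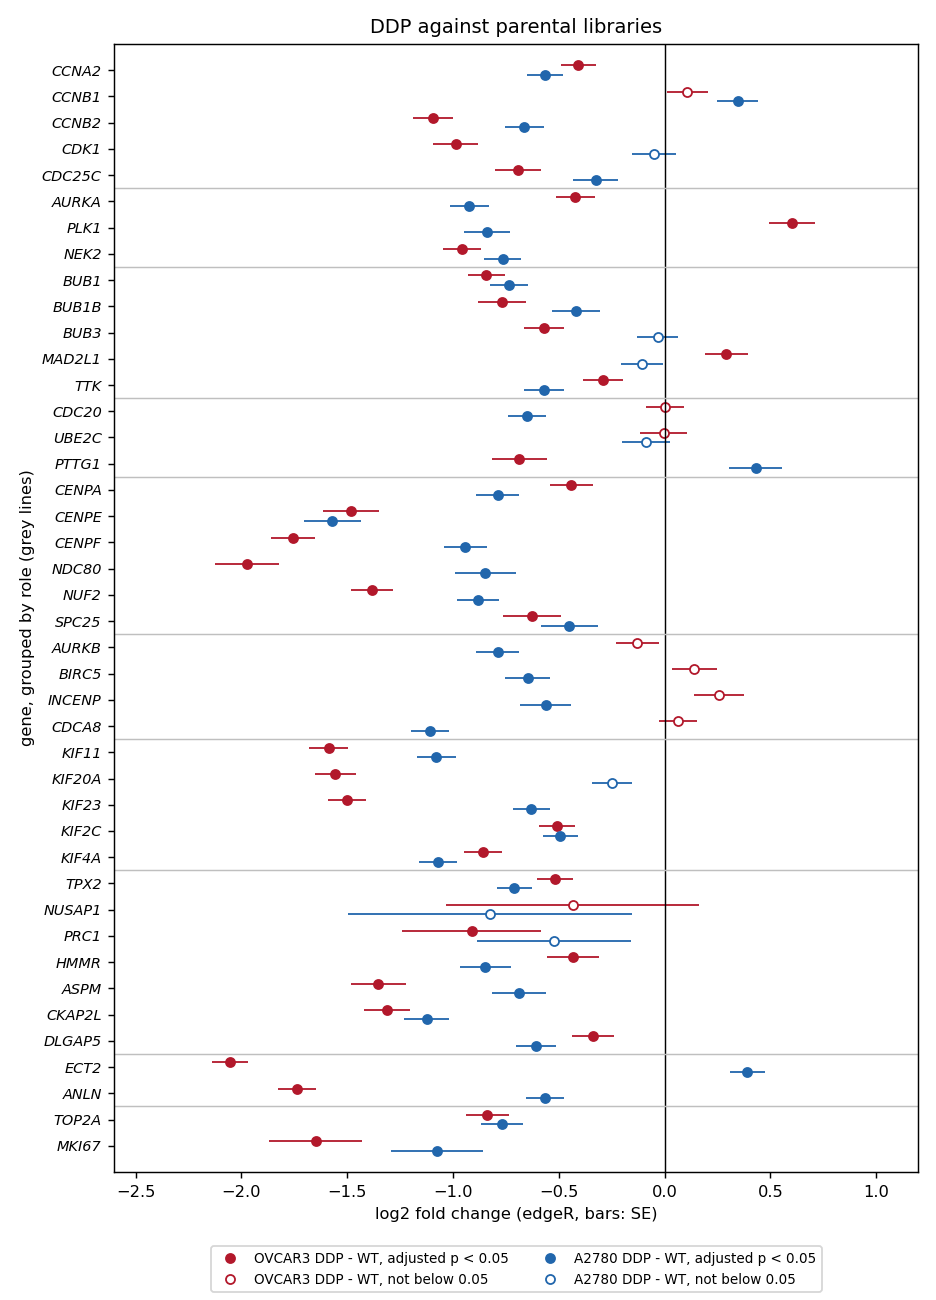
Log2 fold change of each of the 42 genes in the 2 derivatives labelled DDP against their parental line (red OVCAR3, blue A2780), with bars of 1 SE. Filled points have an adjusted p below 0.05. Most points lie left of 0 in both lines; PLK1, PTTG1 and ECT2 are filled on opposite sides.

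The kinetochore motor CENPE, which carries chromosomes toward the metaphase plate (chr4:103105806-103198409, minus strand), fell furthest. It stood at 33.6 and 35.9 normalised CPM in parental A2780 and at 10.7 and 13.1 in A2780-DDP, a difference of −1.57 (SE 0.14, adjusted p = 1.18e-06). The spindle protein CKAP2L fell from 45.9 and 47.1 to 21.7 and 21.7, or by 1.12 (SE 0.11, adjusted p = 3.51e-06). KIF11 fell from 131 and 122 to 61.3 and 60.6, or by 1.08 (SE 0.09, adjusted p = 1.1e-06). None of these ranges overlapped. Of the kinetochore group 6 of 6 were lower, from CENPE to SPC25 (−0.45), but the SPC25 call was lost without any 1 of the 4 A2780 libraries, with an adjusted p of up to 0.266. Of the kinesins 4 of 5 were lower, KIF4A by 1.07, KIF23 by 0.63 and KIF2C by 0.49 beside KIF11, and KIF20A was not called (−0.25, adjusted p = 0.0572).

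Unlike in OVCAR3, the chromosomal passenger complex was lower as a whole in A2780-DDP. CDCA8, its targeting subunit borealin, went from 128 and 131 normalised CPM to 60.2 and 61.8, a difference of −1.11 (SE 0.09, adjusted p = 6.08e-07). The kinase AURKB differed by −0.79 (SE 0.10), survivin BIRC5 by −0.65 (SE 0.11) and the scaffold INCENP by −0.56 (SE 0.12). All 3 mitotic kinases were lower, AURKA by 0.92, PLK1 by 0.84 and NEK2 by 0.77. Of the checkpoint BUB1 (−0.73), TTK (−0.57) and BUB1B (−0.42) were lower, and BUB3 (−0.03) and MAD2L1 (−0.11) were not called. The BUB1B call was lost without either parental library or A2780-DDP replicate 1 (adjusted p up to 0.139), and that of INCENP without parental replicate 2 (0.0531). CDC25C (−0.33) was lower as well, a call lost under 8 of 18 alternatives (adjusted p up to 0.336).

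In A2780-DDP 3 members were higher. PTTG1 stood at 144 and 109 normalised CPM against 92.1 and 92.7 in the parental line, a difference of 0.43 (SE 0.13, adjusted p = 0.0182). ECT2 stood at 265 and 256 against 195 and 196 (0.39, SE 0.08, adjusted p = 0.00243). CCNB1, cyclin B1, stood at 302 and 261 against 211 and 225 (0.34, SE 0.10, adjusted p = 0.0126). Of PTTG1 and CCNB1 the first A2780-DDP library was the higher, and both calls were lost without A2780-DDP replicate 1 and without parental A2780 replicate 1. The PTTG1 call was also lost without parental replicate 2. The highest adjusted p over the alternatives was 0.167 for PTTG1 and 0.0992 for CCNB1. The partners of these proteins moved otherwise: CDK1 was not called (−0.05, SE 0.10), and CDC20, which targets cyclin B1 and securin for destruction, was lower (−0.65, SE 0.09).

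Between the lines, 26 members were lower in both derivatives, which is 81.2% of the 32 lower in each. Over all genes tested, 7.48% were lower in both, which is 21.3% of the genes lower in the OVCAR3 comparison and 43.3% of those lower in A2780. No member was higher in both and 3 were called in opposite directions, against 7.89% and 11.4% of all genes. The difference between the 2 changes was tested as an interaction: 8 members were higher and 13 lower in the OVCAR3 comparison relative to the A2780 comparison, at a background of 26.9% of genes higher and 26.9% lower (53.8% together). With no scaling factor these counts were 15 and 10. For 17 of the 26 members lower in both, the difference between the lines was not called, as for 52.4% of all genes lower in both. Among the 17 were TOP2A (−0.07, SE 0.14), CENPE (0.09, SE 0.19), BUB1 (−0.11, SE 0.12), TPX2 (0.19, SE 0.12) and KIF2C (−0.01, SE 0.12). Which members these are depended on scaling. With no scaling factor edgeR called the difference for TPX2 (0.38, adjusted p = 0.0108), CCNA2, TTK, CENPA, KIF4A, HMMR and DLGAP5. It no longer called that of CCNB2, NUF2 and KIF11. A difference that was not called is not shown to be absent.

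The largest difference between lines was that of ECT2, at −2.05 in one derivative and 0.39 in the other, with an interaction of −2.44 (SE 0.12, adjusted p = 2.07e-09). KIF20A (−1.31, SE 0.14), ANLN (−1.17, SE 0.13), NDC80 (−1.12, SE 0.21), PTTG1 (−1.12, SE 0.18) and CDK1 (−0.94, SE 0.15) also had interactions below 0. Of these, ANLN and NDC80 were lower in both derivatives. PTTG1 was called higher in A2780-DDP, and KIF20A and CDK1 were not called there. On the other side PLK1 had an interaction of 1.44 (SE 0.15, adjusted p = 3.39e-06). The 4 subunits of the chromosomal passenger complex all lay on that side: CDCA8 at 1.18 (SE 0.12), INCENP at 0.82 (SE 0.17), BIRC5 at 0.79 (SE 0.15) and AURKB at 0.66 (SE 0.14), each with an adjusted p of 0.00153 or less. CDC20 (0.65), AURKA (0.50) and MAD2L1 (0.40) were on that side as well.

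Genes of the same machinery outside the 42 were read from lists, by counts of calls. Beside these counts stand the shares over all genes, 17.3% lower and 18% higher in A2780-DDP and 35.2% lower and 33.4% higher in the OVCAR3 comparison, and several of the OVCAR3 counts lie near them. The list of other mitotic kinesins and cytokinesis genes had 17 of 17 lower in A2780-DDP (median −0.82; KIF18A −2.07, SE 0.13), and 9 lower and 5 higher in the OVCAR3 comparison. Other kinetochore subunits had 12 of 20 lower and 1 higher in A2780-DDP, and 16 of 20 lower and 2 higher in the OVCAR3 comparison. Of condensin and cohesin 11 of 20 were lower and 1 higher in A2780-DDP, where the cohesin protector SGO2 differed by −1.26 (SE 0.12), and 12 were lower and 7 higher in the OVCAR3 comparison. Subunits and inhibitors of the anaphase-promoting complex had 7 of 17 lower and 1 higher in A2780-DDP, and 12 lower and 2 higher in the OVCAR3 comparison. Of the regulators in the FOXM1 and MuvB list, 5 of 13 were lower and 3 higher in A2780-DDP, and 6 lower and 3 higher in the OVCAR3 comparison, where no scaling factor gave 4 and 4. CDK1 brakes and phosphatases had 0 of 10 lower and 1 higher in A2780-DDP, the phosphatase CDC25A (0.42, SE 0.12), and 4 lower and 4 higher in the OVCAR3 comparison, where CDC25A was 2.80 higher on the log2 scale (SE 0.12).

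S phase and replication genes did not follow the members. In A2780-DDP 17 of 25 were higher and 2 lower, with a median of 0.42, and CCNE1, cyclin E1, was higher by 1.90 (SE 0.11, adjusted p = 3.66e-08). In the OVCAR3 comparison 11 were higher and 12 lower. Replication histone mRNAs (20 genes) were listed as a check of library quality and not as S phase genes. As group means they summed to 53.1 normalised CPM in parental A2780 and 193 in A2780-DDP. In parental OVCAR3 they summed to 186 and in the libraries labelled OVCAR3-DDP to 48.7. The part of library quality in these differences was not tested. Of 16 p53 targets 4 were higher and 4 lower in A2780-DDP, and 11 were higher and 4 lower in the OVCAR3 comparison. CDKN1A, the CDK inhibitor p21, was higher by 0.96 (SE 0.09) in A2780-DDP, but does not stand for the list. The sum over the 16 targets went the other way, from 1099 and 1135 normalised CPM in parental A2780 to 979 and 1006 in A2780-DDP.

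The hairpin libraries asked what changed when ADAR1 was lowered in resistant OVCAR3 cells. The 3 comparisons within them share libraries, so their values are given side by side and no agreement between them is counted. With sh1, 7 of 42 genes were lower than with shNC and 0 higher, at a background of 1.85% of 19044 genes lower and 1.96% higher (3.81% in either direction). The median over the members was −0.17, against 0.02 over all genes. Both sh1 libraries were below both shNC libraries for 24 members (25.4% of all genes) and above them for 1, HMMR (21.9%).

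**Figure D4:**
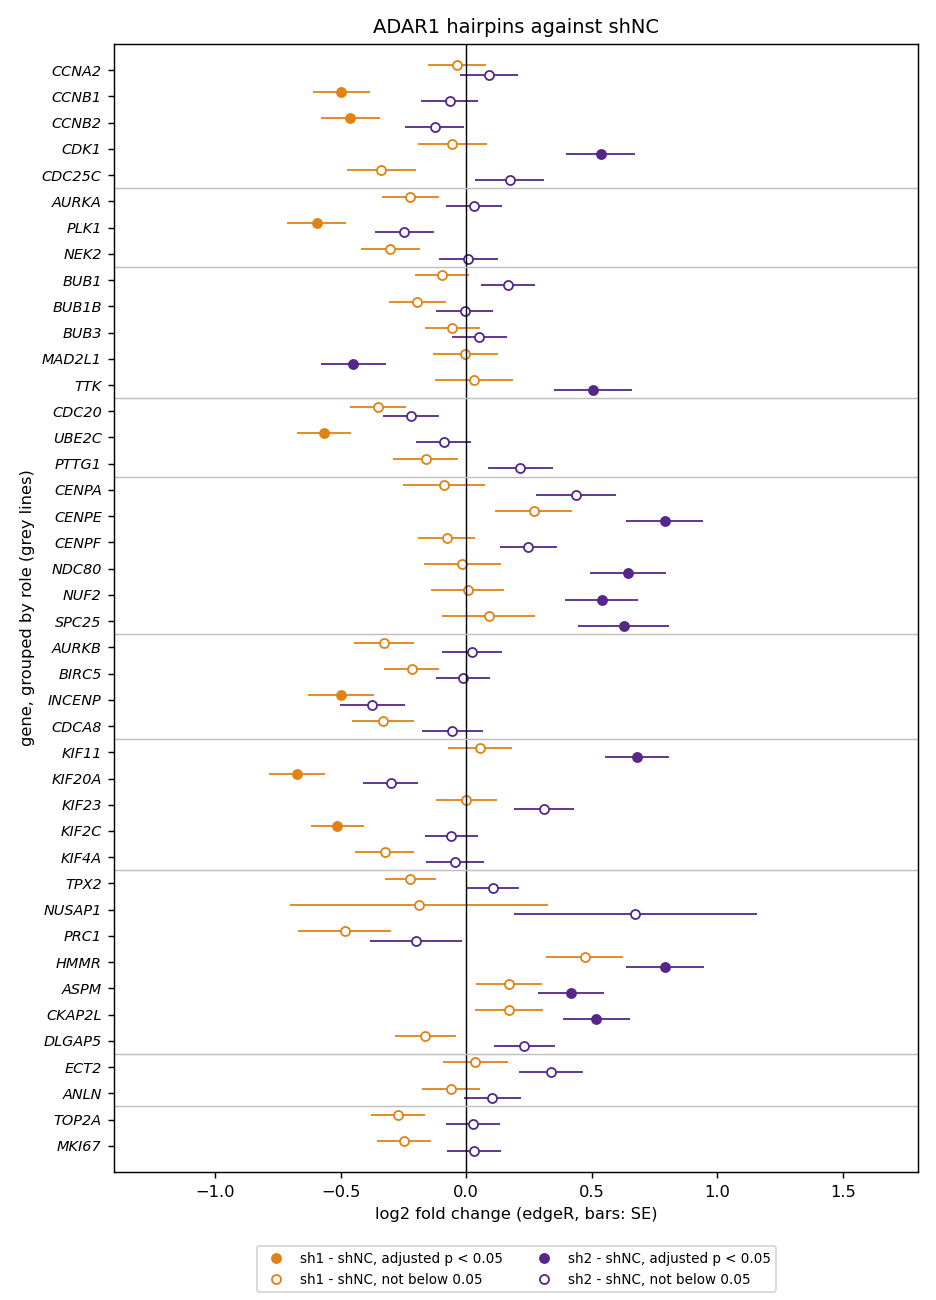
Log2 fold change of each of the 42 genes with the first (orange) and the second (purple) ADAR1 hairpin against the control hairpin, with bars of 1 SE. The 2 sets share the control libraries. Filled points have an adjusted p below 0.05: 7 orange points left of 0, and 10 purple points right of 0 with MAD2L1 left of it.

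The 7 were KIF20A, PLK1, UBE2C, KIF2C, CCNB1, INCENP and CCNB2. KIF20A, the kinesin that carries the passenger complex to the midzone, stood at 198 and 197 normalised CPM with shNC and at 120 and 124 with sh1, a difference of −0.67 (SE 0.11, adjusted p = 0.00216). PLK1 stood at 117 and 117 against 81.4 and 70.8 (−0.59, SE 0.12, adjusted p = 0.0076). UBE2C, the ubiquitin-conjugating enzyme of the anaphase-promoting complex, stood at 213 and 221 against 144 and 143 (−0.57, SE 0.11, adjusted p = 0.00659). KIF2C stood at 302 and 305 against 215 and 201 (−0.51, SE 0.11, adjusted p = 0.0101). In none of the 4 did the groups overlap. CCNB1 (−0.50), INCENP (−0.50) and CCNB2 (−0.46) were the other calls. The 2 sh1 libraries were unlike each other: TTK stood at 47.9 and 72.1 and CDK1 at 145 and 204. The count of 7 rested on single libraries: it fell without either shNC library and rose without either sh1 library. The number of calls over all genes moved the same way, so these shifts are not particular to the members. The median over the members was −0.06 without sh1 replicate 1, −0.25 without sh1 replicate 2, and −0.14 and −0.19 without shNC replicate 1 and 2. With no scaling factor 5 members were lower and HMMR was higher. Of the other mitotic kinesin and cytokinesis list 4 of 17 genes were lower with sh1 and 0 higher (TROAP −0.55), and of the ovarian epithelial markers 4 of 12 were lower and 0 higher, whose part in these differences was not tested.

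With sh2, which lowered ADAR further, 10 of 42 genes were higher than with shNC and 1 lower, at a background of 7.23% higher and 7.04% lower (14.3% in either direction). The median over the members was 0.10, against 0.00 over all genes. Both sh2 libraries were above both shNC libraries for 23 members (30.9% of all genes) and below for 12 (33.4%). The 10 included 4 of the 6 kinetochore members, and 3 of the 7 spindle microtubule proteins. HMMR, a spindle-assembly protein, stood at 51.1 and 44.3 normalised CPM against 27.9 and 27.9 with shNC, a difference of 0.79 (SE 0.15, adjusted p = 0.00267). CENPE stood at 94.1 and 84.0 against 53.5 and 51.0 (0.79, SE 0.15, adjusted p = 0.00252). KIF11 stood at 98.7 and 99.8 against 66.1 and 59.6 (0.68, SE 0.13, adjusted p = 0.00215). These 3 had separate groups. NDC80 stood at 84.4 and 67.5 against 54.5 and 44.0 (0.64, SE 0.15, adjusted p = 0.00885), the 2 libraries of each group being less alike. SPC25 (0.63), NUF2 (0.54), CDK1 (0.54), CKAP2L (0.52), TTK (0.50) and ASPM (0.42) were the other increases. MAD2L1 was the member lower with sh2, at 71.6 and 72.0 against 99.7 and 99.0 (−0.45, SE 0.13, adjusted p = 0.026).

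None of the members lower with sh1 was called with sh2, where KIF20A differed by −0.30 (adjusted p = 0.0711), PLK1 by −0.25 and CCNB1 by −0.07. The count of 11 with sh2 also rested on single libraries: it fell without any 1 shNC or sh2 library and rose without either sh1 library. The number of calls over all genes moved the same way. The median over the members lay between 0.09 and 0.11 with 1 library left out. With no scaling factor 14 members were higher and 0 lower, at 0.20 for the median of the members and 0.11 for that of all genes. In the same comparison mitochondrial mRNA genes had 8 of 13 lower and 0 higher, condensin and cohesin 8 of 20 higher and 0 lower (SMC4 0.74, SE 0.13), and other kinetochore subunits 6 of 20 higher and 0 lower (SKA1 1.22, SE 0.20).

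The hairpins were then compared with each other. Relative to sh1, sh2 had 5 of 42 genes higher and 0 lower, at a background of 0.667% higher and 1.25% lower (1.92% in either direction). Both sh2 libraries were above both sh1 libraries for 39 members, where 22.5% of all genes were, and the median over the members was 0.33, against −0.00 over all genes. Below was MAD2L1, and CDC20 and INCENP overlapped. The 5 were NDC80 (84.4 and 67.5 against 42.05 and 53.5 normalised CPM; 0.66, SE 0.15, adjusted p = 0.0279), KIF11 (98.7 and 99.8 against 58.6 and 69.4; 0.62, SE 0.13, adjusted p = 0.0136), CDK1 (277 and 252 against 145 and 204; 0.59, SE 0.14, adjusted p = 0.0279), UBE2C (196 and 206 against 144 and 143; 0.48, SE 0.11, adjusted p = 0.0267) and KIF2C (0.46, SE 0.11, adjusted p = 0.0295). This count fell without any 1 sh2 or shNC library and rose without either sh1 library, most without sh1 replicate 2. The number of calls over all genes moved the same way. The median over the members was 0.27 without sh1 replicate 1 and 0.42 without sh1 replicate 2. DESeq2's Wald test called 12 members higher and 1 lower.

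The control hairpin libraries were finally set against both untransduced OVCAR3 groups, in a fit of all 14 libraries over 24193 genes. These comparisons share the shNC libraries, and the hairpin, the depth and the mitochondrial share cannot be told apart from the group. Relative to parental OVCAR3, 21 of 42 genes were higher with shNC and 5 lower, at a background of 25.1% and 26.5% (51.5% in either direction). The median over the members was 0.37, against 0 over all genes. Both shNC libraries lay above both parental ones for 25 members (35.2% of all genes) and below for 10 (37.8%). The counts depended on scaling: with no scaling factor 14 were higher and 10 lower, the median of all genes moving to −0.17 and that of the members to 0.18. Without the 2 libraries labelled OVCAR3-DDP in the fit, 21 were higher and 4 lower.

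**Figure D5:**
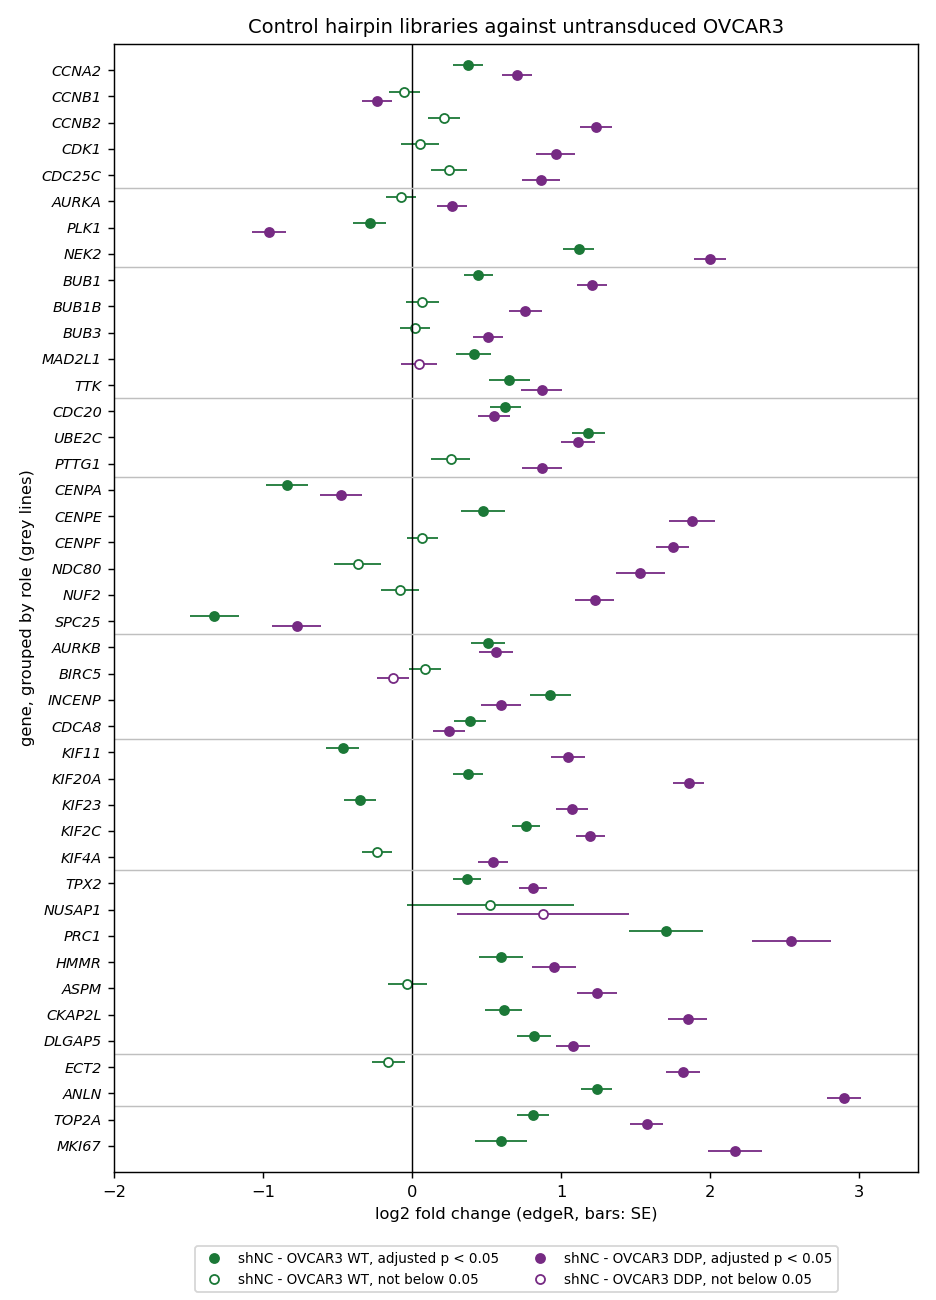
Log2 fold change of each of the 42 genes in the control hairpin libraries against parental OVCAR3 (green) and against the libraries labelled OVCAR3-DDP (purple), with bars of 1 SE. The 2 sets share the control hairpin libraries. Filled points have an adjusted p below 0.05; PLK1, CENPA and SPC25 are filled left of 0 in both, and most purple points lie to the right of the green ones.

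ANLN stood at 416 and 407 normalised CPM with shNC and at 170 and 179 in parental OVCAR3, a difference of 1.24 (SE 0.11, adjusted p = 6.57e-10). UBE2C stood at 213 and 221 against 106 and 85.0 (1.18, SE 0.11, adjusted p = 4.01e-09). NEK2, a centrosome kinase, stood at 129 and 127 against 59.99 and 58.0 (1.12, SE 0.10, adjusted p = 2.76e-09). PRC1, uncertain as above, stood at 10.01 and 9.99 against 2.51 and 3.57 (1.71, SE 0.25, adjusted p = 2.94e-06). All 4 kept separate groups. Of 4 passenger complex subunits 3 were higher, INCENP most (0.93), and so were TOP2A (0.81) and MKI67 (0.60). The MKI67 call was lost with no scaling factor (0.40, adjusted p = 0.0638), without parental replicate 1 and without shNC replicate 1. That of the passenger subunit CDCA8 was lost with no scaling factor (0.20, adjusted p = 0.111) and without shNC replicate 1. SPC25, a subunit of the NDC80 complex, was lower at 7.6 and 7.77 against 21.3 and 17.4 (−1.33, SE 0.16, adjusted p = 2.59e-07). CENPA was lower at 29.5 and 30.8 against 56.4 and 51.6 (−0.84, SE 0.14, adjusted p = 2.02e-05). KIF11 was lower at 66.1 and 59.6 against 86.5 and 87.2 (−0.47, SE 0.11, adjusted p = 0.00111). KIF23 was lower at 103 and 98.0 against 128 and 129 (−0.35, SE 0.11, adjusted p = 0.00782), a call lost without shNC replicate 2. PLK1 was lower too (−0.28, adjusted p = 0.0365), losing its call under 10 of 23 alternatives, with an adjusted p of up to 0.548.

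Relative to the libraries labelled OVCAR3-DDP, which bear the same resistant label, 35 of 42 genes were higher with shNC and 4 lower, at a background of 32.9% and 36.8% (69.7% in either direction). The median over the members was 0.96, against −0.06 over all genes, and no scaling factor gave 0.67 against −0.36 with 32 higher and 5 lower. Both shNC libraries were above for 37 members (40.7% of all genes) and below for 5 (45.3%). ANLN, at 53.9 and 56.3 in the libraries labelled OVCAR3-DDP, was 2.90 higher on the log2 scale (SE 0.11, adjusted p = 4.06e-17). MKI67 stood at 477 and 411 against 100.02 and 97.5 (2.17, SE 0.18, adjusted p = 1.02e-10). NEK2 stood at 129 and 127 against 31.3 and 32.7 (2.00, SE 0.11, adjusted p = 2.39e-14). PRC1 stood at 10.01 and 9.99 against 1.78 and 1.64 (2.55, SE 0.26, adjusted p = 5.39e-09). All 5 kinesins, both cytokinesis genes and both mitotic chromosome proteins were higher. PLK1 was lower at 117 and 117 against 227 and 229 (−0.96, SE 0.11, adjusted p = 4.46e-08). SPC25 was lower at 7.6 and 7.77 against 12.7 and 13.6 (−0.78, SE 0.17), and CENPA at 29.5 and 30.8 against 42.1 and 41.7 (−0.48, SE 0.14). CCNB1 was lower at 142 and 146 against 170 and 169 (−0.24, SE 0.10, adjusted p = 0.0446). None of these 4 had overlapping groups. The CCNB1 call was lost under 13 of 22 alternatives, with an adjusted p of up to 0.286.

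The other lists were read beside the shares over all genes. With shNC these were 26.5% lower and 25.1% higher relative to parental OVCAR3, and 36.8% lower and 32.9% higher relative to the libraries labelled OVCAR3-DDP. Several of the counts below lie near them. S phase and replication had 17 of 25 lower and 4 higher with shNC relative to parental OVCAR3, and 14 lower and 8 higher relative to the libraries labelled OVCAR3-DDP. Other kinetochore subunits had 11 of 20 lower and 3 higher relative to parental OVCAR3, where SKA1 differed by −3.07 (SE 0.17), and 5 lower and 9 higher relative to the libraries labelled OVCAR3-DDP. Replication histones, the library quality list, summed to 662 normalised CPM with shNC as a group mean, against 186 and 48.7 in these 2 groups. CDKN1A was higher with shNC by 2.45 (SE 0.10) relative to parental OVCAR3 and by 1.98 (SE 0.10) relative to the libraries labelled OVCAR3-DDP. It does not stand for the 16 p53 targets. Their sum was 1114 and 1127 normalised CPM with shNC, near the 1087 and 1106 in the libraries labelled OVCAR3-DDP. In parental OVCAR3 that sum was 811 and 789.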

How the data were processed

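Total RNA of 14 libraries in 7 groups of 2 was sequenced. Per the submitters' processing notes, the tools were FastQC 0.11.9, STAR 2.7.8a, SAMtools and HTSeq 2.0.3, with build GRCh38.p13; annotation release and strand setting: not given in the sources used here. The deposited values are raw read counts per gene. Lines that name no gene were left out: reads in no feature were 48.7% to 50.0%, ambiguous reads 2.09% to 2.48% and reads not uniquely aligned 2.36% to 4.99%. The members and all gene lists were chosen with earlier results of these data known.

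Counts were tested with edgeR 4.0.16 (R 4.3.3): TMM scaling, a minimum count of 10, the quasi-likelihood F test, and Benjamini-Hochberg adjustment over all genes tested. The 8 untransduced libraries, the 6 hairpin libraries and all 14 were fitted as 3 models, and every group of a model shared 1 estimate of spread. Folds come from the model of the comparison and levels from the scaling of all 14 libraries. Alternatives used DESeq2 1.42.0, limma 3.58.1, other scalings, other filters, the replicate number as a block, and each library omitted in turn. The scripts were tested on simulated data. Values per library were given for the 4 members with the largest called change in each direction of each comparison of 2 groups, and in the other lists 1 gene per direction could be named. Members were matched to GENCODE 29 for positions and exon lengths and to RefSeq GRCh38.p14 for promoters. No 2 libraries of a group agreed within sampling noise, and the groups were unequal in this. The chi-square per gene between the 2 libraries was 31.5 in parental OVCAR3, 21.1 with sh1 and 18 in A2780-DDP. In the other groups it lay between 3.88 and 5.01. The 1 estimate of spread in each model was thus shared by groups with unlike replicates.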

Additional observations from a re-analysis of the deposited data

Results flagged for a closer look

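The change from parental to derivative differed between OVCAR3 and A2780, by an interaction term with adjusted p below 0.05 in edgeR's quasi-likelihood test, for 21 members. Over all genes tested the share called was 53.8%, so the count is not particular to the members. Its split by direction depended on scaling, as given above. On the log2 scale, OVCAR3 change minus A2780 change, the lower values were ECT2 −2.44, KIF20A −1.31, ANLN −1.17, NDC80 −1.12, PTTG1 −1.12, CDK1 −0.94, KIF23 −0.87, CENPF −0.81, ASPM −0.66, BUB3 −0.54, KIF11 −0.51, NUF2 −0.50 and CCNB2 −0.43. The higher values were PLK1 1.44, CDCA8 1.18, INCENP 0.82, BIRC5 0.79, AURKB 0.66, CDC20 0.65, AURKA 0.50 and MAD2L1 0.40. Each of these rests on the libraries labelled OVCAR3-DDP, whose ovarian epithelial markers summed to 494 and 533 normalised CPM against 4896 and 4394 in the parental line; the part of that difference was not tested.

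The effects of the ADAR1 hairpins differed from each other, sh2 minus sh1, for NDC80 (0.66), KIF11 (0.62), CDK1 (0.59), UBE2C (0.48) and KIF2C (0.46). Over all genes tested 1.92% were called. None of these 5 calls was kept in every alternative.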

How the results depend on the processing

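Calls kept under every alternative numbered 29 of 34 in the OVCAR3 comparison, 29 of 35 in A2780, 17 of 21 for the difference between lines, 1 of 7 with sh1 (KIF20A), 1 of 11 with sh2 (CENPE), 0 of 5 between the hairpins, 17 of 26 for shNC against parental OVCAR3 and 35 of 39 against the libraries labelled OVCAR3-DDP. Leaving out 1 library gave 30 to 35, 30 to 36, 17 to 25, 1 to 17, 2 to 21, 0 to 33, 23 to 28 and 36 to 39 called members in that order. Between the hairpins the count of 5 became 12 with no low-count filter, 13 with DESeq2's Wald test and 8 with all 14 libraries in one fit; the cause was not tested. Total counts with no scaling factor were chosen as an alternative after seeing the data, as was leaving out both libraries labelled OVCAR3-DDP. With no scaling factor AURKA (−0.024, adjusted p = 0.842) and CDCA8 (−0.042, adjusted p = 0.736) turned lower with shNC against the libraries labelled OVCAR3-DDP. A replicate block gave 35, 35, 21, 7, 11, 6, 27 and 37 called members, in the order of the comparisons above. The deviations of same-numbered libraries, over 12119 genes, correlated at −0.17 in OVCAR3, −0.26 in A2780, 0.06 for shNC and sh1, 0.01 for shNC and sh2 and −0.34 for sh1 and sh2. Across comparisons parental OVCAR3 and A2780-DDP, which share a model, stood at 0.54. The labels give no shared batch and not every pair was above 0.1, so the numbers were not taken to pair the libraries. With 2 libraries a group, leaving one out leaves its group with no spread of its own, and the spread of the other groups stood in.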
